A study of Homo sapiens with 4 samples.

Results

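S100A8, S100A9, S100A12, S100A4, S100A6, S100A11, S100A13, S100P and S100Z are 9 genes of the S100 family of calcium-binding proteins. They are 9 of the 30811 distinct gene names on an Agilent whole human genome array and were read by 10 of its 41000 probes, with 2 for S100A11 and 1 for each of the rest. The genes were chosen by name, and every probe that carries one of the names was kept. All 10 probes were among the 28221 that were tested, as each was well above background, the scanner software's mark for a usable signal, on both arrays of at least 1 line. Of the 10, 8 were well above background on all 4 arrays.

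The samples were flasks of NB4, an established human cell line from acute promyelocytic leukemia (APL). Naive NB4 cells were compared with an arsenic trioxide (ATO) resistant line, labelled NB4-VM-AsR1, to ask how the resistant cells differ in gene expression. The study's methods describe the resistant line as a single clone, written NB4-EV-AsR1, that was derived in-house and kept without ATO for a week before harvest, and both names are taken here for one line. Both lines grew in RPMI medium with FBS. From each line 2 flasks grown apart gave RNA for 1 array each, with Cy3 as the only dye, so that the flasks stand for the spread between cultures and not for the spread between separately derived clones.

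S100 proteins are small, mostly dimeric proteins with a pair of EF-hands, the helix-loop-helix folds that hold calcium, and most human S100 genes lie in a cluster on the long arm of chromosome 1. S100A8 and S100A9 form calprotectin, an abundant cytosolic complex of neutrophils and monocytes that also binds zinc and manganese, and S100A12 is a related protein of the same cells. Outside the cell these proteins act as alarmins on the receptors AGER (RAGE) and TLR4. In APL the block of maturation is at the promyelocyte stage, before these proteins reach the level they have in mature neutrophils.

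The promoters of the 4 genes that changed, described below, are shown as the 250 bases before the first start annotated by RefSeq in GRCh38.p14, 5′ to 3′ on the strand of the gene, so that shared letters can be read. Capitals mark matches to motifs searched on both strands, namely TTNNGNAA for C/EBP factors, GAGGAA for PU.1, TGANTCA for AP-1, TGACNNNGC for the antioxidant response element and TATAAA for the TATA box. The AP-1 and antioxidant response element letters can overlap each other.
S100A8 promoter (chr1:153391189-153391438, minus strand): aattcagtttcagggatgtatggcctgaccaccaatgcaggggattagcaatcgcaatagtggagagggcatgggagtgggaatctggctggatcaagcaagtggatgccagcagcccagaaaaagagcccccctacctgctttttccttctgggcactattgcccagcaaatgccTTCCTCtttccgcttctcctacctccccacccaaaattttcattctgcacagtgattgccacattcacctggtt
S100A9 promoter (chr1:153357604-153357853, plus strand): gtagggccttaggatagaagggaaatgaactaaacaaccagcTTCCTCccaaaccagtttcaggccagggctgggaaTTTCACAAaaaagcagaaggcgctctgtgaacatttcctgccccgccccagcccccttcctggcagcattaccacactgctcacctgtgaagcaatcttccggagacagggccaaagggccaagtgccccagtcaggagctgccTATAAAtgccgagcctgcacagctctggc
S100A13 promoter (chr1:153634362-153634611, minus strand): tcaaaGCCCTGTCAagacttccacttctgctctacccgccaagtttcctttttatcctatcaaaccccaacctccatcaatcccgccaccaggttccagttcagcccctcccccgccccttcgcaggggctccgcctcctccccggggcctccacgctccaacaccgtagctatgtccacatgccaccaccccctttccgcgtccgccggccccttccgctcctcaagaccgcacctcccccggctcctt
S100Z promoter (chr5:76874373-76874622, plus strand): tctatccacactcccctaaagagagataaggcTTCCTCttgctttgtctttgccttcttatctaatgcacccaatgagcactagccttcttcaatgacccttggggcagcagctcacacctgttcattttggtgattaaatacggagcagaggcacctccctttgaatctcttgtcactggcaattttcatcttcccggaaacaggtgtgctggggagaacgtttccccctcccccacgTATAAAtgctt
RefSeq lists 3 starts each for S100A8 and S100A13. The bases from position -35 to -6 before a start are shown for the 5 member genes with TATAAA between -35 and -20, which for S100A8 and S100A13 is at the second start listed, with the TATA box in capitals.
S100A8 core promoter: aaccgcTATAAAaaggagctgcctctcagc
S100A9 core promoter: gctgccTATAAAtgccgagcctgcacagct
S100A13 core promoter: gctgctTATAAAcctcagccctgaggctcc
S100A4 core promoter: ggggTATAAAtaggtcagacctctgggccg
S100P core promoter: gctgcctTATAAAgcaccaagaggctgcca
TATAAA stood between positions -35 and -20 in 5 of the 9 member genes, against 3.35% of the 27305 genes with a window, where a gene counts if any of its starts has the match. In S100A8, S100A9 and S100A13 it began at the same position, -29. The C/EBP letters were found in 7 of the 9 member genes (38.1% of all genes), the PU.1 letters in 3 (27.3%), the AP-1 letters in 1 (8.06%, here S100A12) and the antioxidant response element letters in 1 (13.2%, here S100A13). These matches describe letters in these windows and were not tested as binding sites.

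Values below are log2 of the processed signal minus the 75th percentile of the array, so that 0 is the signal at that percentile. Each probe is set only against itself on other arrays, because the brightness of different probes is not comparable. On the 4 arrays 27922 to 28244 probes were well above background and 457 to 565 were saturated. All arrays lay on 1 slide. The naive flasks were less alike than the resistant ones, since the log2 difference within a line had an SD of 0.71 over all tested probes for the naive pair and of 0.37 for the resistant pair. Over 6 spike-in controls the first naive array stood apart, with a median log2 difference of -1.31 from the second naive array after normalization, where the resistant arrays had -0.24 and -0.27. The part of this in the S100 results was not tested. Among the members, log2 differences with a naive flask left out are given for S100A12, S100A4, S100A6 and S100P. For the other members they are left out, which does not mean that they stayed the same. With 2 flasks per line the smallest two-sided p of an exact permutation test is 0.333, and the p-values below come from limma, which pools the spread over probes. A probe was called changed at an adjusted p below 0.05 and at least 2-fold. An array averages over a culture, so that more transcript per cell and more cells with the transcript cannot be told apart.

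Of the 10 member probes, 4 were called and all 4 were higher in the ATO resistant line, namely those of S100A8, S100A9, S100A13 and S100Z. Over all 28221 probes tested, 5.27% were called in either direction and 2.30% were called higher. No member probe was called lower by limma (1 at an unadjusted p below 0.05), where 2.97% of all probes were. S100Z and S100A9 passed the filter on dim probes only through the resistant line, where they are high, so that nothing is read from the count of 4 against these shares. Where every array had to be well above background, 2 members were called, S100A8 and S100A13, and 760 of 25962 probes in all. The median log2 difference was 1.17 over the member probes and -0.02 over all probes. Both resistant flasks were above both naive flasks for 6 member probes (24.5% of all probes tested) and below them for 3 (28.0%). The flasks of the lines overlapped for 1, where 52.5% of all probes did not overlap. S100Z and S100A9 are also in the median of 1.17 and among the 6. Nothing is therefore read from either against the values over all probes. The count of called members was 0 with the normexp background correction and 0 with the methods' t-test, both by Benjamini-Hochberg adjustment, with 2 and 6 member probes at an unadjusted p below 0.05. Neither of these alternatives called any of the 28221 probes. The count of called members also moved with 1 flask left out. A line then has 1 flask, and such counts are not read as results about the members.

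**Figure D1:**
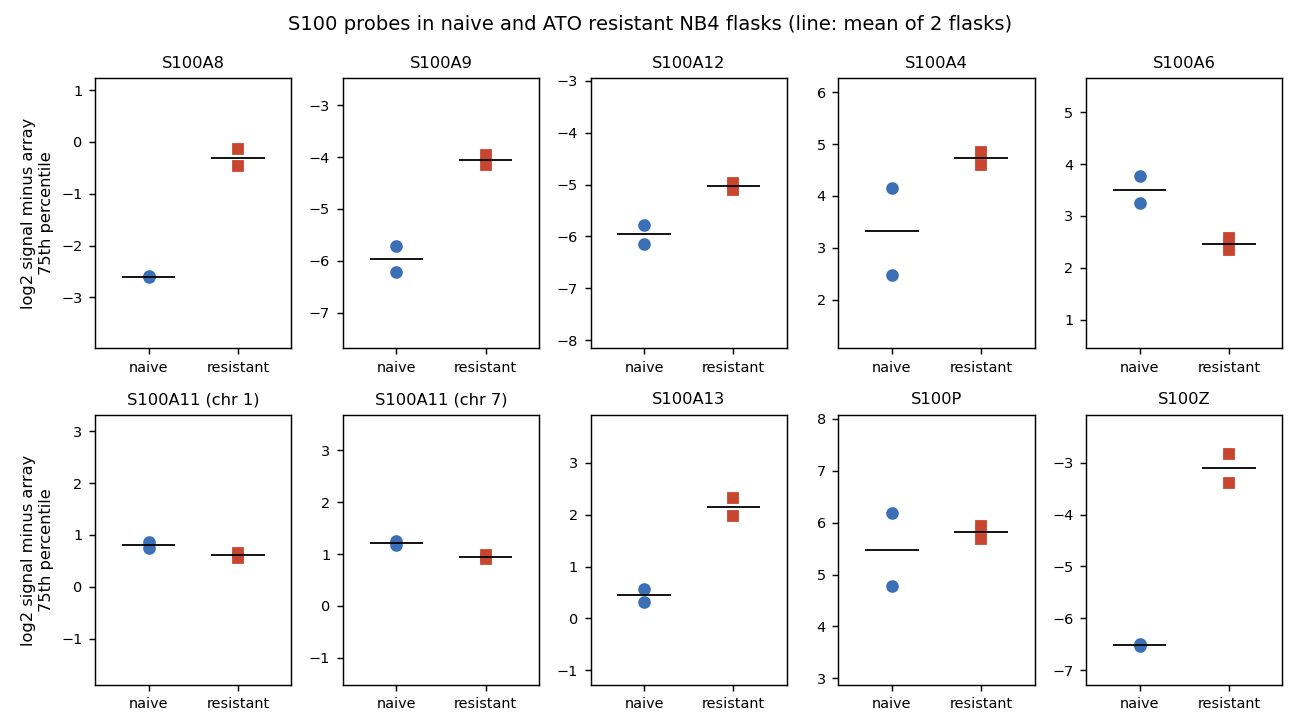
Signal of the 10 member probes in each flask, as log2 signal minus the 75th percentile of the array. Every panel spans the same range, circles are naive and squares are ATO resistant flasks, and lines are means of 2 flasks. The naive flasks of S100A4 and S100P lie far apart (4.16 and 2.48 for S100A4), while both resistant flasks of S100A8, S100A9, S100A13 and S100Z lie above both naive flasks.

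S100A8 (probe at chr1:153362548-153362607 of hg19, minus strand) encodes the smaller subunit of calprotectin. Its values were -2.61 and -2.58 in the naive flasks and -0.47 and -0.14 in the resistant flasks. The naive flasks were almost identical, and the gap of 2.12 between the lines exceeded the largest gap of 0.32 within a line. S100A8 rose 4.89-fold, or by 2.29 on the log2 scale (standard error 0.24), at an adjusted p of 0.00711. It kept its call in 15 of 18 alternatives. It lost the call without resistant flask 2 (log2 change 2.13, adjusted p = 0.0764), and over the 18 alternatives the adjusted p ran from 0.00126 to 0.679.

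S100A9, the partner of S100A8 in calprotectin, has a probe that the array file leaves unmapped. Its values were -5.71 and -6.22 in the naive and -4.16 and -3.95 in the resistant flasks, and the second naive flask was not well above background. The lines did not overlap. S100A9 rose by a fitted 1.91 on the log2 scale (standard error 0.27), at an adjusted p of 0.0215, where 1 of 2 naive arrays measured it. This call held in 9 of 17 alternatives. It was lost without resistant flask 1 (2.01, adjusted p = 0.118) and without resistant flask 2 (1.81, adjusted p = 0.179), within a range of 0.00133 to 1.00 over the alternatives. Under normexp, which adds an offset of 50 intensity units, the change of this dim probe was 0.67, and 0.61 with bright local backgrounds reset.

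S100A12 (chr1:153346234-153346293 of hg19, minus strand), the third of the myeloid alarmins, had -6.15 and -5.78 in the naive and -4.96 and -5.10 in the resistant flasks. Both resistant flasks lay above both naive ones, and the naive values were near the dimmest usable signals of the arrays (-6.63 to -6.17). The log2 difference of 0.93 (95% interval 0.31 to 1.55) was under 2-fold and was not called (adjusted p = 0.123). Without naive flask 2 it was 1.12. Naive flask 2 was the brighter naive flask, so that without naive flask 1 the difference was smaller than 0.93.

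Markers of mature neutrophils and monocytes did not move in one direction beside S100A8 and S100A9. Of 10 such genes, ITGAM (CD11b) and CAMP (the cathelicidin precursor) rose with log2 changes of 2.01 and 2.05, FCN1 and MMP9 fell with -2.55 and -2.01, 4 were tested without a call, and LTF and FCGR3B were not well above background on any array. The summed signal of the 10, in multiples of the 75th percentile, was 49.8 to 52.1 in the naive and 20.3 to 23.0 in the resistant flasks. Such a sum adds probes of unequal brightness, and MMP9, which fell, was the largest part of it in every flask. Of 7 promyelocyte markers 2 rose (ELANE and AZU1), 1 fell (ANPEP) and 4 were not called. ELANE was well above background on 1 of 2 naive arrays, so that it passed the filter on dim probes only through the resistant line. Over all genes tested 5.46% were called, and nothing is read from the marker counts against that share. The summed signal of the promyelocyte markers read 125.7 to 141.7 in naive and 154.8 to 185.5 in resistant flasks. MPO was saturated on all 4 arrays and CTSG on both resistant arrays, so that these sums have no exact value and no order is read from them. Of 8 stromal and endothelial markers 5 were not well above background on any array, COL1A1 and COL3A1 among them. None was called by limma (0 at an unadjusted p below 0.05), with sums of 0.896 to 1.23 and 1.23 to 1.34. PECAM1, with -0.26 and 0.21 in the naive and 0.23 and 0.36 in the resistant flasks, was the largest part of these sums in every flask. Of 5 lymphoid markers CD3D was at least 169-fold lower in the resistant line and the sums were 3.04 to 3.39 and 1.55 to 1.66, and the 4 erythroid markers had none called by limma (0 at an unadjusted p below 0.05), with sums of 0.0767 to 0.078 and 0.0456 to 0.0947. The part of these markers in the S100 results was not tested.

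S100A4, which binds non-muscle myosin and is known for cell motility, and S100A6, which binds the ubiquitin ligase adaptor CACYBP, lie close together in the cluster. S100A4 (chr1:153516198-153516257 of hg19, minus strand) had 4.16 and 2.48 in the naive and 4.60 and 4.85 in the resistant flasks. The naive flasks differed by a log2 value of 1.68, a gap that only 3.41% of all tested probes exceeded, while the resistant flasks differed by 0.25. Its log2 difference of 1.41 (95% interval -0.02 to 2.83) was not called (adjusted p = 0.268). With naive flask 1 left out the difference was 2.25 and called (adjusted p = 0.00127), and with naive flask 2 left out it was 0.57 without a call (adjusted p = 0.114), so that the naive flask used decides this value. Over all alternatives the adjusted p of S100A4 ran from 0.00127 to 1.00.

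S100A6, unmapped in the array file, had 3.76 and 3.25 in the naive and 2.34 and 2.59 in the resistant flasks. Both resistant flasks lay below both naive flasks, opposite to S100A4. The log2 difference of -1.04 (95% interval -1.74 to -0.34) was not called (adjusted p = 0.124). Without naive flask 2 it was -1.30, and without naive flask 1 it was -0.78, under 2-fold.

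The 2 probes of S100A11, a partner of annexin A1, gave the same picture. The probe at chr1:152005219-152005278 of hg19, minus strand, had 0.86 and 0.74 in the naive and 0.57 and 0.65 in the resistant flasks. The other is placed at chr7:35209069-35209128 of hg19, plus strand, away from the gene, and RefSeq lists S100A11 pseudogenes on chromosome 7. It had 1.25 and 1.17 in the naive and 0.91 and 0.97 in the resistant flasks. The log2 differences were -0.19 (95% interval -0.75 to 0.36, adjusted p = 0.688) and -0.27 (95% interval -0.82 to 0.28, adjusted p = 0.555), so that a change of 2-fold lies outside both intervals. Neither probe was called in any of 18 alternatives.

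S100A13 (chr1:153591285-153591344 of hg19, minus strand) takes part in the release of leaderless proteins such as FGF1 and interleukin 1 alpha. Its values were 0.57 and 0.32 in the naive and 1.97 and 2.32 in the resistant flasks. The gap between the lines was 1.41 and the largest gap within a line 0.35. S100A13 rose 3.26-fold, or by 1.70 on the log2 scale (standard error 0.25), at an adjusted p of 0.0239. Its size was stable at 1.53 to 1.88 over 18 alternatives, of which 12 kept the call. It was lost without resistant flask 1 (adjusted p = 0.126) and without resistant flask 2 (adjusted p = 0.251), within 0.00387 to 0.883 over the alternatives. The partners FGF1 and IL1A, both on the array, did not pass the filter on dim probes.

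S100P and S100Z lie outside the cluster. S100P (chr4:6698819-6698878 of hg19, plus strand), a ligand of AGER that also binds ezrin, had 4.77 and 6.18 in the naive and 5.69 and 5.94 in the resistant flasks. The second naive flask, where the probe was saturated, was the highest of the 4 and the first the lowest, so that the lines overlapped. The log2 difference of 0.34 had a wide interval (-0.90 to 1.58, adjusted p = 0.753). It turned to -0.36 without naive flask 1 and was 1.04 with a call without naive flask 2 (adjusted p = 0.0199, over all alternatives 0.0199 to 1.00). The saturated reading enters the 0.34 and is the whole of the naive side of the -0.36, so that neither is an exact difference.

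S100Z (chr5:76173533-76173592 of hg19, plus strand), a family member found in leukocytes, was well above background in the resistant line alone. Its values were -6.50 and -6.54 in the naive flasks, where it was not well above background, and -3.39 and -2.82 in the resistant flasks. S100Z was at least 8.89-fold higher in the resistant line, a bound set by the dimmest usable signal of each naive array, and the fit gave 3.41 on the log2 scale (standard error 0.28) at an adjusted p of 0.00358. It was called in 15 of 17 alternatives (adjusted p 0.000113 to 1.00). The naive values are readings of background, so that the spread between them, and the p-values that use it, are not those of a measured level. The fitted change was 1.19 under normexp and 1.36 with bright local backgrounds reset. S100A8 then had 1.77 and 1.98, and S100A13 had 1.55 and 1.64. The offset lowers the change of a dim probe more than that of a bright one, so that the 3 genes are not ranked by these values.

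**Figure D2:**
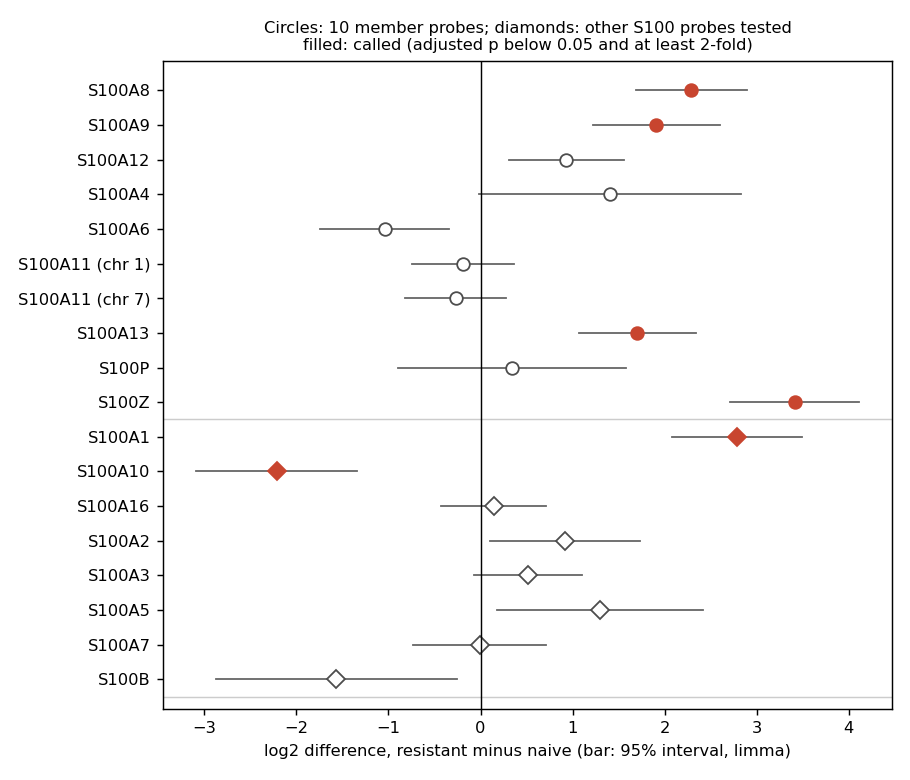
Log2 difference between the lines, resistant minus naive, for the 10 member probes (circles) and the other S100 probes tested (diamonds), with 95% intervals from limma and filled symbols for called probes. The intervals of S100A4 and S100P are the widest among the members and include 0, and the value of 3.41 for S100Z is a fit against naive readings of background.

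The probes of the members share little sequence with the probes of other S100 genes. Each is 60 bases long, and the longest run shared with a probe of another S100 gene was 7 to 9 bases. The 2 probes of S100A11 shared a run of 6 bases. Probes were set against probes and not against transcripts, so that these runs cannot tell whether a bright member was read by the probe of another. Binding to transcripts outside the probes' own letters was not tested.

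The other S100 genes and the fused-type S100 genes, which join an S100 domain to a long repeat and serve the skin barrier, were described by a list of 18 genes. Of these 15 were on the array and 10 were tested, 1 rose, 1 fell and 8 were not called, where 5.46% of the 21063 genes tested were called, 2.49% higher and 2.98% lower. The median log2 change of the list was 0.33, against -0.01 over all genes. S100A5, among the 10 tested, passed the filter on dim probes only through the resistant line. Nothing is therefore read from the counts or the median of this list against the values over all genes. S100A1, a calcium sensor best known from muscle, had -5.52 and -4.98 in the naive and -2.37 and -2.56 in the resistant flasks and rose by 2.79 on the log2 scale (standard error 0.28, adjusted p = 0.0064). S100A10, the partner of annexin A2, had 3.17 and 2.42 in the naive and 0.35 and 0.81 in the resistant flasks and fell with a log2 value of -2.21 (standard error 0.35) and an adjusted p of 0.0287. S100A1 kept its call with each flask left out but had a change of 1.14 without a call under normexp, and S100A10 lost it without resistant flask 1 (adjusted p = 0.157) and resistant flask 2 (adjusted p = 0.076). S100B, a glial family member, had -0.29 and -1.77 in the naive and -2.78 and -2.40 in the resistant flasks, a log2 difference of -1.57 that was not called (adjusted p = 0.194). S100A7A, S100A14, S100G, FLG and RPTN were not well above background on any array.

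The family was also followed along chromosome 1. The positions of hg19 run from S100A10 and S100A11 over the genes of the skin barrier to S100A12, S100A8 and the rest of the cluster. From S100A12 to S100A1, over 258 kb, 9 S100 probes with a position were tested. All 9 had a log2 difference above 0, as did 48.3% of all probes tested. They ran from 0.14 for S100A16 to 2.79 for S100A1. Of the 9, 3 were called (S100A8, S100A13 and S100A1), where 5.27% of all probes tested were. S100A5, among the 9, was not well above background in the naive flasks and passed the filter on dim probes only through the resistant line. Nothing is therefore read from the 9 against these shares. By the order of genes in RefSeq, S100A7 and S100A6 also lie in this stretch, but the array file gives their probes no position. Their log2 differences were -0.01 and -1.04, so that the sign was not shared by the whole stretch. The stretch was chosen after its values were seen. S100A13 and S100A1, whose probes lie 12.99 kb apart, were both called, and of S100A12 and S100A8, whose probes lie 16.3 kb apart, S100A8 was called. Between S100A11 and S100A12, over 1341 kb, 29 probes of other genes were tested, with log2 differences from -0.66 to 1.30. None of these was called by limma, where 5.27% of all probes tested were, with 3 at an unadjusted p below 0.05. The methods' t-test called none of them, and no other probe either.

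In the window from 500 kb before S100A10 to 500 kb after S100A1 (chr1:151455420-154104335 of hg19), 87 probes of other genes lay, of which 61 were tested. Of these 3 were called higher and 2 lower, where 2.30% and 2.97% of all probes were, with a median log2 difference of -0.09. Among the 3 are the 2 probes of CGN, which passed the filter on dim probes only through the resistant line. Nothing is therefore read from these counts against these shares. CREB3L4, a membrane-bound transcription factor gene beyond S100A1, rose by 1.51 on the log2 scale (adjusted p = 0.0429). The tight-junction gene CGN, not well above background in the naive flasks, was at least 1.27-fold and at least 2.05-fold higher by its 2 probes on the scale without an offset (adjusted p = 0.0155 and 0.0444), and the tuftelin gene TUFT1 fell with -2.68 (adjusted p = 0.00786). An unnamed probe beside S100A10 fell with -2.48 (adjusted p = 0.0121). The calls of CGN, CREB3L4 and the unnamed probe were lost with a resistant flask left out (adjusted p up to 0.113 and 0.477 for the probes of CGN, 0.316 for CREB3L4 and 0.0671 for the unnamed probe), and that of TUFT1 was not. With the offset of normexp none of the 5 was called. The changes then were 0.51 and 0.44 for CGN, -1.22 for TUFT1 and -0.34 for the unnamed probe, and with bright local backgrounds reset they were 0.35 and 0.29, -1.78 and -0.92, with a call for TUFT1 and CREB3L4.

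**Figure D3:**
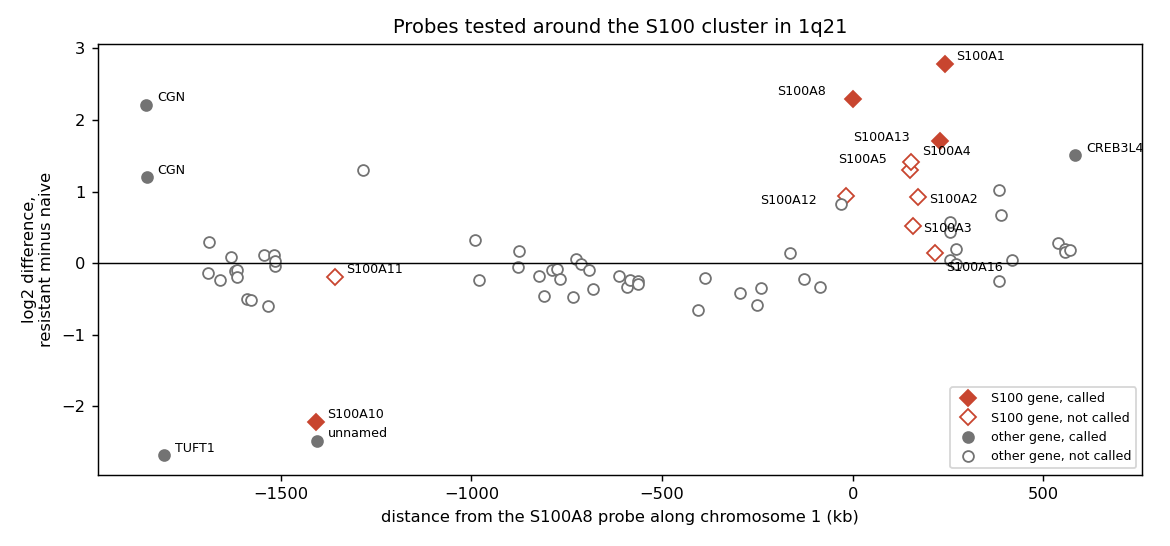
Log2 difference, resistant minus naive, of the probes tested around the S100 cluster against their distance in kb from the S100A8 probe on chromosome 1, with diamonds for S100 genes and circles for other genes, filled where called. The S100 probes plotted from S100A12 to S100A1 lie above 0, S100A6 (-1.04), S100A7 and S100A9 have no position and are not plotted, and none of the probes between S100A11 and S100A12 was called.

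Receptors and partners of S100 proteins were given by a list of 16 genes, of which 13 were tested, 1 rose and none fell, where 2.49% and 2.98% of all genes tested were called higher and lower. LY96 (MD-2), which holds the ligand for TLR4, was not well above background in the naive flasks (-6.69 and -6.32) and had -2.14 and -1.74 in the resistant flasks. Nothing is read from the count of 1 against these shares, because LY96 passed the filter on dim probes only through the resistant line. It was at least 19.98-fold higher in the resistant line (fitted log2 change 4.57, adjusted p = 0.00149) and was called with each flask left out, on the scale without an offset. With the offset of normexp its change was 1.78 without a call, and 2.18 with a call when bright local backgrounds were reset. TLR4 itself had -1.45 and -1.52 in the naive and -0.50 and -0.50 in the resistant flasks, a log2 difference of 0.98 without a call (adjusted p = 0.0773). AGER had -0.31 and 1.04 in the naive and 0.88 and 0.97 in the resistant flasks, and the spread of the naive flasks covered both resistant values (log2 difference 0.56, adjusted p = 0.567). CD36 (0.58) and BSG (-0.07) were not called either.

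Of the 11 intracellular partners 8 were tested and none was called by limma, where 5.46% of all genes tested were. At an unadjusted p below 0.05 there was 1. ANXA2, the partner of S100A10, had 3.96 and 2.77 in the naive and 1.48 and 1.23 in the resistant flasks, a log2 difference of -2.01 that was not called (adjusted p = 0.073). ANXA11 (0.20), CACYBP (-0.09), MYH9 (0.12) and EZR (-0.27), partners of S100A6, S100A4 and S100P, stayed within 0.27 of 0 on the log2 scale without a call. The median over the partners was -0.18.

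Other EF-hand genes and the transcription factors that act on myeloid genes were not called. Over all genes tested 5.46% were called by limma, so that a count of 0 in lists this short is not read as a result about them. None of 16 EF-hand genes outside the family passed the test by limma, with 2 at an unadjusted p below 0.05 (PEF1 with -0.68 and EFHD2 with -0.85) and a median of -0.02. Among 5 factors, CEBPA (0.02), CEBPB (0.04), CEBPD (-0.36), CEBPE (-0.62) and SPI1 (-0.08, the gene of PU.1), none was called by limma, and CEBPE was the 1 at an unadjusted p below 0.05. The methods' t-test also called 0 in both lists, as it did over all 28221 probes.

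**Figure D4:**
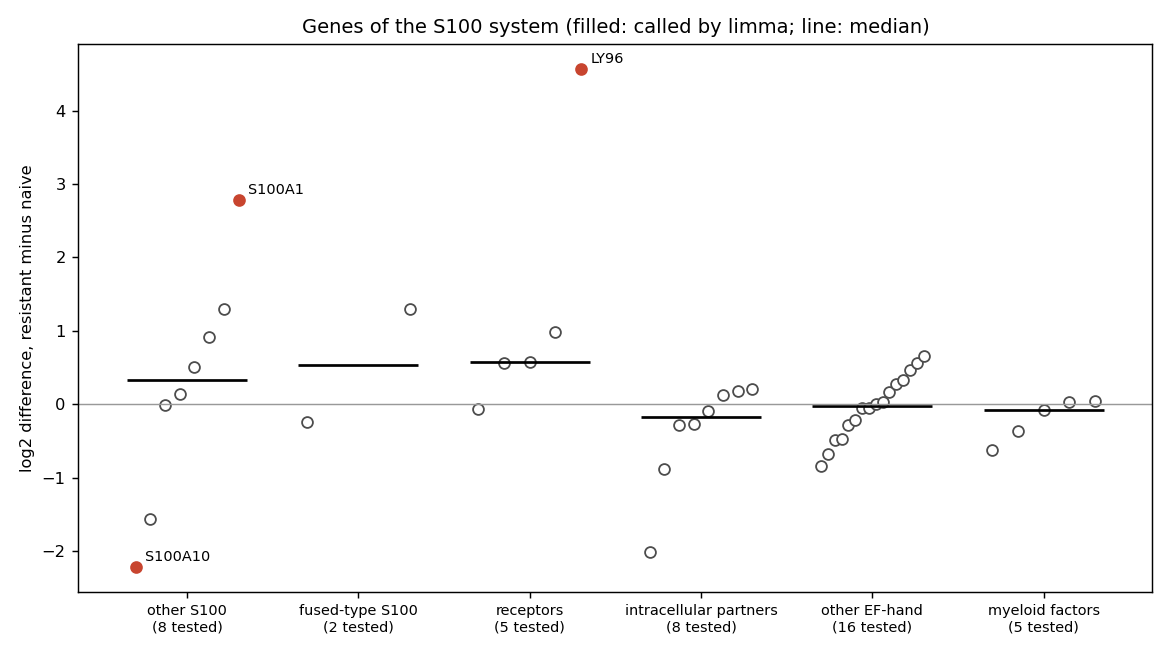
Log2 difference, resistant minus naive, of the genes tested in the lists of other S100 genes, fused-type S100 genes, S100 receptors, intracellular partners, other EF-hand genes and myeloid transcription factors, each gene by its brightest probe, with a line at the median of a list. Filled points are called by limma, and these are S100A1, S100A10 and LY96 (4.57).

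The genes whose 4 values, after subtraction of their own mean, lay nearest to those of S100A8 were TMEM92, PPM1N, ULK4P1, MOCOS and TP53TG1, at distances of 0.08 to 0.17 on the log2 scale over 4 arrays. Their fitted log2 changes were 2.17 to 2.35. TMEM92 was below the dimmest usable signal of both naive arrays, with -7.10 and -7.13, so that its distance and its change rest on readings of background. This likeness describes 4 arrays only.

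**Figure D5:**
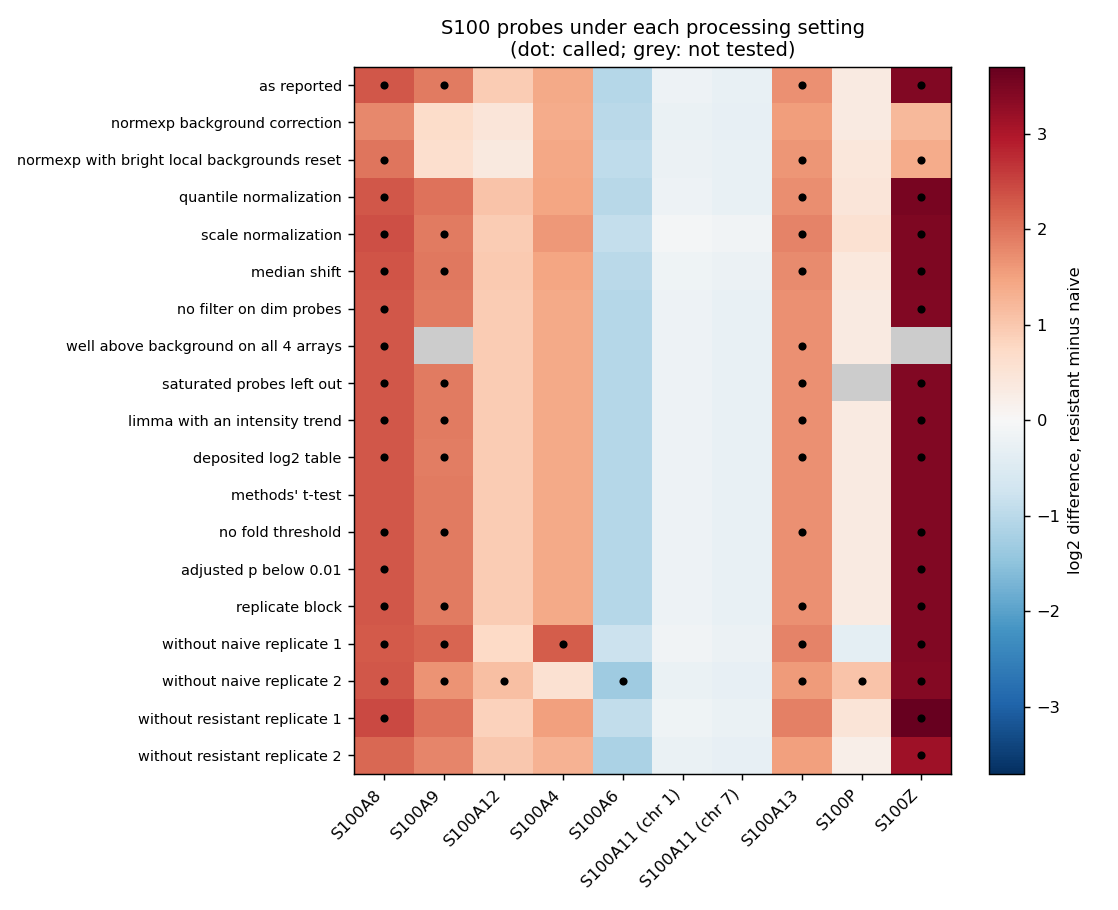
Log2 difference, resistant minus naive, of the member probes (columns) as reported and under 18 alternatives (rows), with a dot where the probe was called and grey where it was not tested. The columns of S100A8 and S100Z carry a dot in 15 alternatives each, and no dot appears under the normexp background correction or the methods' t-test.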

How the data were processed

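RNA from 4 flasks, 2 naive and 2 ATO resistant, was read on Agilent arrays in 1 colour. The authors deposited the scanner tables of Feature Extraction 10.5.1.1, where the processed signal is a linear intensity after subtraction of background and of spatial trends, with the mean spot and median background intensity beside it. A further table deposited by the authors holds log2 values from GeneSpring GX, centred on each array's 75th percentile. For the member probes it lay within 0.01 of the values used here.

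In R 4.3.3, spots marked as outliers were left out (none of the member spots), log2 was taken, replicate spots were reduced to their mean and each array was centred on its 75th percentile. The test was limma 3.58.1 (lmFit, then eBayes) over 28221 probes, with Benjamini-Hochberg adjusted p-values. The test was tried on simulated data. A gene of a list is given by its brightest tested probe. All member genes, called genes of the lists, up to 4 of the brightest others in a list, up to 5 called neighbours on chromosome 1 in each direction and the 5 genes nearest to S100A8, the member with the largest called change among those well above background on all arrays, were to be named, and further genes and values that help a reader were chosen after they were seen. The members, lists, motifs and tests were chosen with earlier results of these data known. Arrays have no read depth, and their number limits the precision.

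Alternatives were 2 normexp corrections, quantile and scale normalization, a median shift, the methods' t-test, other thresholds, other filters on dim or saturated probes, limma with a trend on intensity, the authors' own log2 table, the replicate block, each flask left out, and a gene's mean over its probes. With 1 slide there was no block for it. Probe positions are those of hg19, per the file headers, and no annotation of exons was used for that build. Promoter sequences are from RefSeq, and 26222 of 41000 probes found a RefSeq accession.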

Additional observations from a re-analysis of the deposited data

How the results depend on the processing

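Of 177 values of member probes under 18 alternatives, 153 were unchanged in sign and call, 19 were no longer called and 4 became called. S100P turned to -0.36 without naive flask 1 and was 1.04 without naive flask 2. Of 4 called member probes, 0 remained under normexp (2 at an unadjusted p below 0.05 by limma) and 0 by the methods' t-test (6 at an unadjusted p below 0.05). With all dim probes kept 2 were called, as were 1004 of 41000 probes in all. When every array had to be well above background, 2 were called, as were 760 of 25962 in all, and S100A9 and S100Z are not tested there. At an adjusted p below 0.01, 2 were called. The count of members ran from 1 to 7 with 1 flask left out. For the other S100 genes, 2 as reported, the count was 0 under normexp (1 at an unadjusted p below 0.05), 0 by the methods' t-test (2), 1 with all dim probes kept, 1 at an adjusted p below 0.01 and 1 to 5 with 1 flask left out. For partners and receptors, 1 as reported, it was 0 under normexp (2 at an unadjusted p below 0.05), 0 by the methods' t-test (2), 0 when every array had to be well above background (2), 2 with bright backgrounds reset, 2 after scale normalization, 2 with an intensity trend, 2 with the replicate block and 1 to 4 with 1 flask left out. For the neighbours on chromosome 1, 5 as reported, it was 0 under normexp (1 at an unadjusted p below 0.05), 0 by the methods' t-test (11), 2 with bright backgrounds reset, 3 with all dim probes kept, 2 when every array had to be well above background, 1 at an adjusted p below 0.01, 3 with the replicate block and 1 to 8 with 1 flask left out. Other EF-hand genes gave 0 to 1 with 1 flask left out. With a naive flask left out, the error is that of the closer resistant pair, and the single naive flask is taken to vary as much. The counts with 1 flask left out have no share over all probes beside them and are not read as results about a list. The cause of the other moves was not tested.

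The median over all tested probes was -0.02 as reported, 0.13 under normexp and 0.08 after scale normalization. The replicate block kept 4 member calls. For the pairing of flasks by number, the deviations from the line means had r = 0.12 across probes, and 2 pairs cannot settle it. The mean of both S100A11 probes was -0.23 without a call. Signal over background limits S100Z to a lower bound, and S100A9 and S100A12 lie close to the background.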
